A study of Mus musculus with 12 samples.

Results

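The Hoxc cluster is a row of neighbouring Hox genes on mouse chromosome 15, and 7 of its genes (HOXC4, HOXC5, HOXC6, HOXC8, HOXC9, HOXC10 and HOXC13) were measured among 11481 genes in primary mouse embryonic fibroblasts, a mixed connective tissue culture grown from embryos. The genes were chosen by their name and by their KO against WT values, which were known to lie below WT in both treatments, so that contrast is described here and not tested. Of the 10648 genes measured in mock cells 6 were members, of the 11125 measured after doxorubicin all 7 were, and HOXC13 was the member listed after doxorubicin only. HOXC11 and HOXC12 were not analysed here.

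Expression was measured by RNA sequencing in 12 libraries, 3 from each of 4 groups. WT cells carried lincRNA-p21 (lincRNA-p21+/+), KO cells had lost this p53-induced long noncoding RNA, and both were on a hybrid 129/B6 background and grown as primary cultures in the same medium. Each genotype was mock treated or given doxorubicin, an anthracycline that damages DNA, for 24 h at a dose stated as 0.5 mM, a unit that is doubtful because such doses are usually micromolar. The replicates are labelled biological, but the labels do not say whether a number stands for an embryo, a litter or a culture, nor from which part of the embryo cells came. The targeted RNA itself was not analysed here, which leaves the genotype labels without that check. The title of the series names Polycomb target genes as its question, and Hox clusters are the best known of these.

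Hox genes encode homeodomain transcription factors that give cells along the body axis and limbs their positional identity. Within a cluster, the genes lie in the order of the body regions in which they act, and fibroblasts in culture keep much of the Hox pattern of the place they came from. Polycomb complexes hold Hox genes silent where they should be off, and trithorax group proteins keep them on. HOXC4 and HOXC5 belong to the neck and upper trunk end of the cluster, HOXC6, HOXC8 and HOXC9 to the thoracic part, HOXC10 to the lumbar and hindlimb part, and HOXC13 to the tail end and to hair follicles.

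Hox genes share the homeobox, the 180 bases that encode the DNA-binding homeodomain. Its last 60 bases are shown for 6 members because different Hox genes are alike there. They come from GENCODE vM21 transcripts (build GRCm38), 5′ to 3′ on the transcript strand, in the order of the genes on the chromosome, and capitals mark the 18 bases that encode the invariant core of the DNA recognition helix.
HOXC13: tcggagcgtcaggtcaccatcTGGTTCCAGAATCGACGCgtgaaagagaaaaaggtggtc
HOXC10: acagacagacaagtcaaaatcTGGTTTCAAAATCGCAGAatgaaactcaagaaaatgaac
HOXC9: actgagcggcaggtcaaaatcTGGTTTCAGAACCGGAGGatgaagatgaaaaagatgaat
HOXC8: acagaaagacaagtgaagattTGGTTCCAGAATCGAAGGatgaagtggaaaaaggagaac
HOXC6: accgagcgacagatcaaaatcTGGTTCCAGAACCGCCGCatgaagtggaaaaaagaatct
HOXC4: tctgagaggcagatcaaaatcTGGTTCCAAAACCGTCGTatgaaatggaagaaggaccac
The stretch in capitals encodes the same residues in these members, and it was spelled in 6 different ways in the 6 genes. Over the whole homeobox, pairs of these 6 members were 51.1 to 71.7% identical, HOXC9 and HOXC10 being the closest pair, and the longest identical aligned run between any pair was 8 to 20 bases. For all 6 the most alike Hox gene was a paralog of the same number in another cluster: HOXB4 for HOXC4 (82.2%), HOXA6 for HOXC6 (84.4%), HOXB8 for HOXC8 (80.0%), HOXB9 for HOXC9 (83.9%), HOXD10 for HOXC10 (82.8%) and HOXA13 for HOXC13 (77.2%). The longest identical aligned runs with a compared Hox gene were 31 bases for HOXC9 with HOXA9 and 28 bases for HOXC6 with HOXA3. Read length and the treatment of reads that fit several genes are not given in the sources used here. How well reads of these genes are told apart in the homeobox was not tested. In the annotation, a transcript of HOXC5 begins inside HOXC10 and spans HOXC9, HOXC8 and HOXC6, and it shares 166 exonic bases with HOXC10 (8.70% of HOXC10 and 5.37% of HOXC5), so the levels of these genes are uncertain by reads from that stretch. No antisense gene overlapped a member in that annotation (0 for each).

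Library totals ran from 14327048 to 20511907 reads. A member had 31 to 1182 reads in a library, which is a counting error of 2.91 to 18.0%. The spread between the 3 replicates, a coefficient of variation of 5.65 to 67.8%, was larger than the counting error in 24 of 26 combinations of gene and group. Fibroblast markers were abundant in all libraries, with 11 of 12 listed and a summed level of 18152 to 51017 CPM (reads scaled to the library total). EPCAM and CDH1 (epithelium), PECAM1 and CDH5 (endothelium) and PTPRC (blood) were looked for and were not among the listed genes, so their levels are unknown. In bulk RNA, fewer cells of a type and less RNA per cell cannot be told apart.

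Within a group the members did not stand in the order of the chromosome. Per kilobase of exon, HOXC6, which patterns the thoracic region, had the highest mean level in all 4 groups and HOXC4 the lowest. The exon lengths were those of GENCODE vM21 (GRCm38), from 1909 bases for HOXC10 to 3089 for HOXC5. The submitters name the assembly NCBIM37, so the gene models they counted on may differ. The order between genes depends on these lengths. In WT mock cells HOXC6 was at 17.5 ± 1.99 CPM per kb, HOXC10 at 10.5 ± 1.95, HOXC8 at 9.56 ± 2.99, HOXC5 at 4.36 ± 0.821, HOXC9 at 4.22 ± 0.413 and HOXC4 at 3.27 ± 0.185 (SD, n = 3). The HOXC10 and HOXC8 libraries overlapped, as did those of HOXC5 with HOXC9 and HOXC4, while all HOXC6 libraries lay above the rest. After doxorubicin HOXC8 moved down this order in WT cells, to 3.24 ± 1.31 CPM per kb, and HOXC13 came after HOXC6 and HOXC10 at 8.05 ± 2.79, with libraries that overlapped those of HOXC5 (7.82 ± 3.36). The order in KO cells had wider spreads: in KO mock, HOXC6 (12.2 ± 4.76 CPM per kb) overlapped HOXC8 (7.97 ± 5.40), and in KO doxorubicin HOXC6 (16.5 ± 6.31) lay above HOXC10 (7.28 ± 2.33) in every library.

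**Figure D1:**
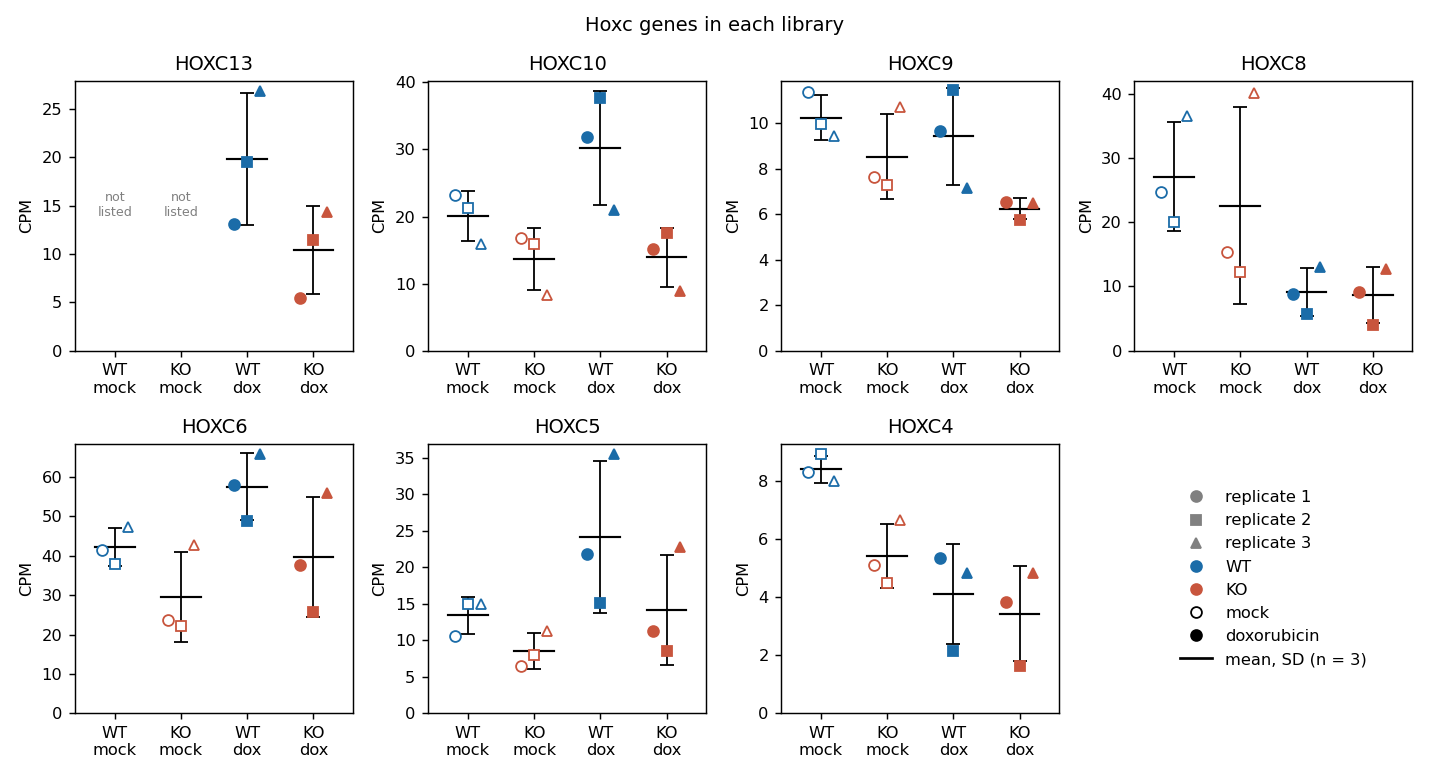
CPM of each Hoxc gene in each library, by genotype (colour), treatment (open for mock, filled for doxorubicin) and replicate number (marker shape), with the group mean and SD (n = 3). HOXC8 is lower after doxorubicin, HOXC10 has its highest group mean in WT doxorubicin (30.2 CPM), and replicate 3 is the lowest HOXC10 library of each group.

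Every member had a lower mean in KO than in WT cells in both treatments, 6 of 6 in mock and 7 of 7 after doxorubicin, where 33.4% and 45.8% of all measured genes had a lower mean log2 value in KO. The members were selected on this, so the counts support nothing further. The median difference over the members was -0.56 in mock and -0.58 after doxorubicin on the log2(CPM + 1) scale, a scale that understates the change of low genes, against 0.06 and 0.03 over all genes. All genes listed in a table exceeded 2 CPM in each of its WT libraries, so genes low in WT are missing from these shares.

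The genes of the posterior end of the cluster were HOXC10 and HOXC13. HOXC10, which acts in lumbar and hindlimb development, had 31.9, 37.7 and 21.0 CPM in WT doxorubicin replicates 1, 2 and 3 and 15.2, 17.6 and 8.97 CPM in the KO doxorubicin replicates. All KO libraries lay below all WT libraries, and the KO mean was 46.0% of the WT mean (log2 difference -1.08, SE 0.30). The difference was nearly the same between libraries of each number, -1.02, -1.06 and -1.14 in log2(CPM + 1). In mock cells HOXC10 was at 23.2, 21.2 and 16.0 CPM in WT and 16.8, 15.9 and 8.29 CPM in KO, where WT replicate 3 lay inside the KO range (log2 difference -0.57, SE 0.28). Without KO mock replicate 3 that difference was -0.27.

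HOXC13, known for its part in hair shaft and nail formation, was at 13.1, 19.5 and 26.8 CPM in the WT doxorubicin replicates and 5.50, 11.4 and 14.4 CPM in the KO doxorubicin replicates. Replicate 1 was the lowest in both genotypes and replicate 3 the highest, so the groups overlapped although KO was lower for each number. The KO mean was 52.7% of the WT mean (log2 difference -0.90, SE 0.38, and -0.54 without KO doxorubicin replicate 1). HOXC9, a thoracic gene that in the spinal cord sets the identity of thoracic motor neurons, was at 9.65, 11.5 and 7.18 CPM in WT doxorubicin and 6.53, 5.73 and 6.50 CPM in KO doxorubicin, without overlap (log2 difference -0.50, SE 0.22). In mock cells HOXC9 overlapped, at 11.4, 9.97 and 9.43 CPM in WT against 7.64, 7.27 and 10.7 CPM in KO (log2 difference -0.25, SE 0.17). That difference was -0.16 without KO mock replicate 2 and -0.41 without KO mock replicate 3.

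HOXC5 and HOXC6, which stand next to each other, were lower in KO for each replicate number in both treatments. HOXC5 was at 10.5, 14.9 and 14.9 CPM in WT mock and 6.43, 7.98 and 11.2 CPM in KO mock, and at 21.9, 15.1 and 35.5 CPM in WT doxorubicin and 11.3, 8.57 and 22.8 CPM in KO doxorubicin. The groups overlapped in both treatments, and KO was lower for each number (log2 differences -0.61, SE 0.23, and -0.75, SE 0.41). The HOXC5 difference after doxorubicin was -0.44 without WT doxorubicin replicate 3, -0.47 without KO doxorubicin replicate 2 and -1.13 without KO doxorubicin replicate 3. HOXC6 was at 41.5, 37.8 and 47.3 CPM in WT mock and 23.7, 22.1 and 42.7 CPM in KO mock. After doxorubicin HOXC6 was at 58.0, 48.8 and 65.8 CPM in WT and 37.6, 25.7 and 55.9 CPM in KO. KO replicate 3 reached into the WT range in both treatments (log2 differences -0.56, SE 0.25, and -0.58, SE 0.27). The HOXC6 difference was -0.85 without KO mock replicate 3 and, after doxorubicin, -0.31 without KO doxorubicin replicate 2.

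HOXC4 and HOXC8 were the members whose genotype difference was small after doxorubicin. HOXC4, a gene of the cervical region that also acts in B cells, was at 8.31, 8.92 and 7.99 CPM in WT mock and 5.09, 4.50 and 6.65 CPM in KO mock, without overlap (log2 difference -0.56, SE 0.16). After doxorubicin HOXC4 was at 5.34, 2.15 and 4.84 CPM in WT and 3.84, 1.63 and 4.83 CPM in KO, ranges that overlapped (log2 difference -0.22, SE 0.38). HOXC8, which patterns the thoracic skeleton, was at 24.7, 20.0 and 36.5 CPM in WT mock and 15.4, 12.2 and 40.1 CPM in KO mock. Its KO libraries ran from below to above the WT range (log2 difference -0.40, SE 0.45). After doxorubicin HOXC8 was at 8.82, 5.66 and 13.0 CPM in WT and 9.15, 4.05 and 12.7 CPM in KO (log2 difference -0.13, SE 0.42). Without KO doxorubicin replicate 2 the differences after doxorubicin turned positive for HOXC4 (0.12) and HOXC8 (0.28), and without WT doxorubicin replicate 3 that of HOXC8 was 0.14. Leaving out any of the other doxorubicin libraries gave -0.54 to -0.03 for HOXC4 and -0.44 to -0.12 for HOXC8. In mock that of HOXC8 ran from -0.89 (without KO mock replicate 3) to -0.07 (without KO mock replicate 2).

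In mock cells 1 member, HOXC4, had every KO library below every WT library, as had 1.74% of all genes, and after doxorubicin 2 members, HOXC9 and HOXC10, did, as had 6.64% of all genes. Libraries of the same replicate number deviated together across the genes of the tables, so differences were also taken within numbers. With the number as a block the differences stayed the same and their SE became smaller. After doxorubicin it was 0.10 in place of 0.30 for HOXC10, 0.13 in place of 0.38 for HOXC13 and 0.11 in place of 0.41 for HOXC5. For HOXC9 it fell less, to 0.17 from 0.22. KO was lower for all 3 numbers in 4 of 6 members in mock (11.9% of all genes) and in 6 of 7 after doxorubicin (27.6% of all genes). The exceptions were HOXC8 and HOXC9 in mock, each higher in KO for number 3, and HOXC8 after doxorubicin, higher in KO for number 1. For HOXC4 after doxorubicin the difference for number 3 was -0.0034, which is no difference at its depth. The members were selected with KO below WT, so these counts and SE describe them and test nothing.

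**Figure D2:**
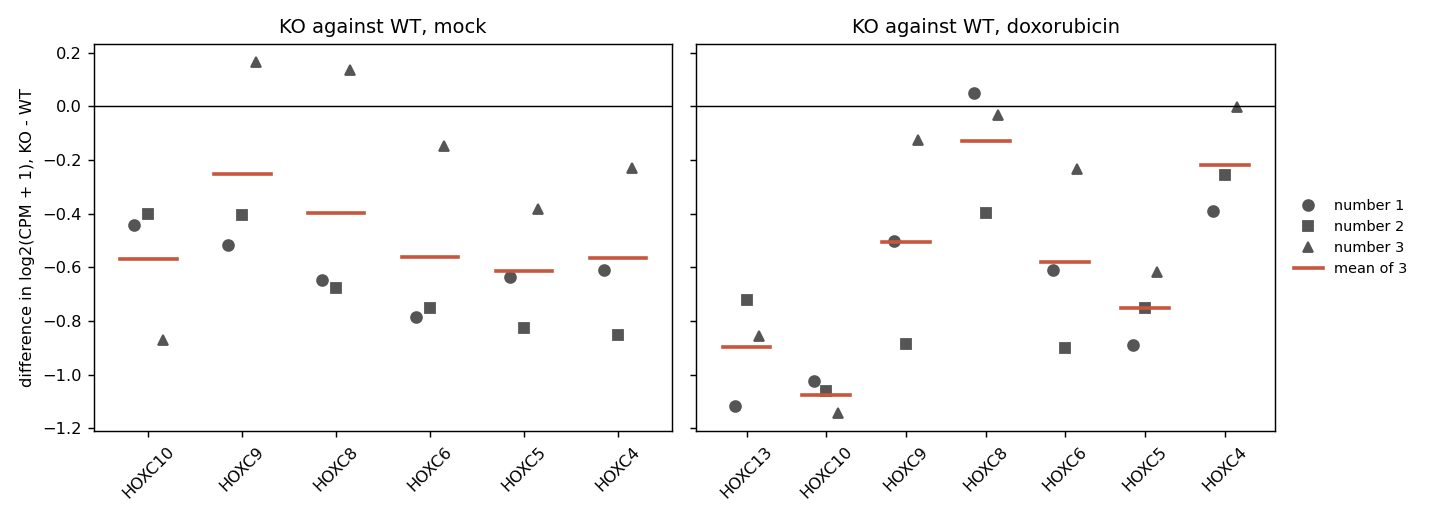
Difference in log2(CPM + 1) between KO and WT libraries of the same replicate number (marker shape) in mock (left) and doxorubicin (right), with the mean over the 3 numbers (bar). HOXC10 after doxorubicin lies at -1.02 to -1.14 for all numbers, while number 3 is the highest marker of HOXC4, HOXC5, HOXC6, HOXC8 and HOXC9 in mock.

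Doxorubicin against mock was a contrast that did not choose the members, and it can be tested because both tables share a scale. In WT cells HOXC8 and HOXC4 fell, and HOXC5, HOXC6 and HOXC10 had higher means that passed only when the replicate number was a block. HOXC8 went from 27.1 ± 8.46 to 9.17 ± 3.70 CPM (SD, n = 3 each), 0.339 times its mock mean, and every doxorubicin library lay below every mock library (limma log2 difference -1.49, SE 0.47, adjusted p = 0.0227). HOXC4 went from 8.40 ± 0.475 to 4.11 ± 1.72 CPM, also without overlap (limma log2 difference -0.94, SE 0.32, adjusted p = 0.0295). Both passed the threshold of 0.05, and both were lower after doxorubicin for all 3 numbers. How many of all genes had no overlap between mock and doxorubicin libraries was not counted. A lack of overlap in this contrast is therefore not shown to be particular to the members. Each call was lost when single libraries were left out. Without WT mock replicate 3 the limma adjusted p was 0.0794 for HOXC8 and 0.0577 for HOXC4, and without WT doxorubicin replicate 2 it was 0.0819 and 0.111. Without WT mock replicate 1 or 2 that of HOXC4 was 0.0648 or 0.0750. Over all 21 alternatives the adjusted p ran from 7.116e-05 to 0.0819 for HOXC8 and from 0.0049 to 0.111 for HOXC4.

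The members that were higher after doxorubicin in WT cells were HOXC5, HOXC6 and HOXC10. HOXC5 went from 13.5 ± 2.54 to 24.1 ± 10.4 CPM with no overlap of the libraries (limma log2 difference 0.73, SE 0.36, adjusted p = 0.117, and 0.0152 with the replicate block). The nearest libraries were those of number 2, at 14.9 CPM in mock and 15.1 CPM after doxorubicin, with counting errors of 5.79% and 5.68%. Number 2 thus barely differed (0.02 in log2), while numbers 1 and 3 differed by 0.99 and 1.19. HOXC6 went from 42.2 ± 4.79 to 57.6 ± 8.49 CPM, again with no overlap but with the nearest libraries at 47.3 and 48.8 CPM (limma log2 difference 0.43, SE 0.28, adjusted p = 0.231, and 0.0289 with the block). HOXC10 went from 20.1 ± 3.73 to 30.2 ± 8.47 CPM, and its libraries overlapped (limma log2 difference 0.54, SE 0.31, adjusted p = 0.176, and 0.0034 with the block). All 3 genes were higher after doxorubicin for each number, HOXC5 in number 2 by less than its counting error. Over the 21 alternatives the adjusted p ran from 0.0021 to 0.386 for HOXC5, from 0.0085 to 0.446 for HOXC6 and from 0.0034 to 0.419 for HOXC10. HOXC9 was at 10.3 ± 1.00 and 9.43 ± 2.15 CPM and passed in neither fit (limma log2 difference -0.13, SE 0.19, adjusted p = 0.597).

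In WT cells 2 of 6 members were thus called lower and 0 higher, beside 21.4% of all 10292 genes called lower and 25.9% called higher. With the replicate block 2 members were called lower and 3 higher, beside 30.1% and 33.6% of all genes. The members' median was 0.15 in log2, against 0.01 over all genes, with 3 above and 3 below 0. HOXC13 had no mock values, so it is outside this median and these counts, and its response is unknown. Listed genes all exceeded 2 CPM in the WT libraries of their treatment, so a gene low in WT mock is missing from this contrast. Under quantile normalization 45.4% and under median centring 42.8% of the WT calls were higher, against 54.8% as deposited, and median centring moved the median of all genes to -0.10. HOXC8 and HOXC4 were the 2 members called under both scalings.

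In KO cells the 6 members had differences of the same sign as in WT, and none passed without the block. HOXC8 went from 22.6 ± 15.3 to 8.64 ± 4.35 CPM, with KO doxorubicin replicate 3 inside the mock range (limma log2 difference -1.22, SE 0.47, adjusted p = 0.065, and 0.00041 with the block). HOXC5 went from 8.54 ± 2.44 to 14.2 ± 7.53 CPM (limma log2 difference 0.59, SE 0.36, adjusted p = 0.227, and 0.0452 with the block), and HOXC6 from 29.5 ± 11.5 to 39.7 ± 15.2 CPM (limma log2 difference 0.41, SE 0.28, adjusted p = 0.285, and 0.0417 with the block). Both were higher after doxorubicin for each number, although their groups overlapped. HOXC5 in number 2 was at 7.98 and 8.57 CPM, with counting errors of 7.96% and 7.83%, so that rise is not clear at its depth. HOXC4 was at 5.41 ± 1.11 and 3.43 ± 1.64 CPM (limma log2 difference -0.60, SE 0.32, adjusted p = 0.166, and 0.0514 with the block). HOXC9 was at 8.54 ± 1.89 and 6.26 ± 0.452 CPM and was the member whose KO groups did not overlap. The share of all genes without overlap in KO was not counted. HOXC9 passed in neither fit (limma log2 difference -0.38, SE 0.19, adjusted p = 0.139, and 0.108 with the block). HOXC10 was at 13.7 ± 4.67 CPM in mock and 13.9 ± 4.44 CPM after doxorubicin (limma log2 difference 0.03, SE 0.31, adjusted p = 0.945), and its sign changed under some alternatives, such as median centring (-0.051).

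By limma 0 of 6 members were called in KO cells, with 1 (HOXC8) at an unadjusted p under 0.05, beside 19.9% of all genes called higher and 14.6% called lower. With the replicate block 1 member was called lower and 2 higher, beside 24% and 29.6% of all genes. HOXC5 was no longer called with a block for genotype and number together (limma adjusted p = 0.0722), which left 2 members. Over the 21 alternatives the KO adjusted p ran from 0.00041 to 0.226 for HOXC8, from 0.0088 to 0.670 for HOXC5 and from 0.0137 to 0.746 for HOXC6. Without KO mock replicate 2 or KO doxorubicin replicate 3, HOXC8 passed without a block (0.0423 and 0.0496). Of the KO calls 57.8% were higher as deposited, 49.8% under quantile normalization and 45.2% under median centring.

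**Figure D3:**
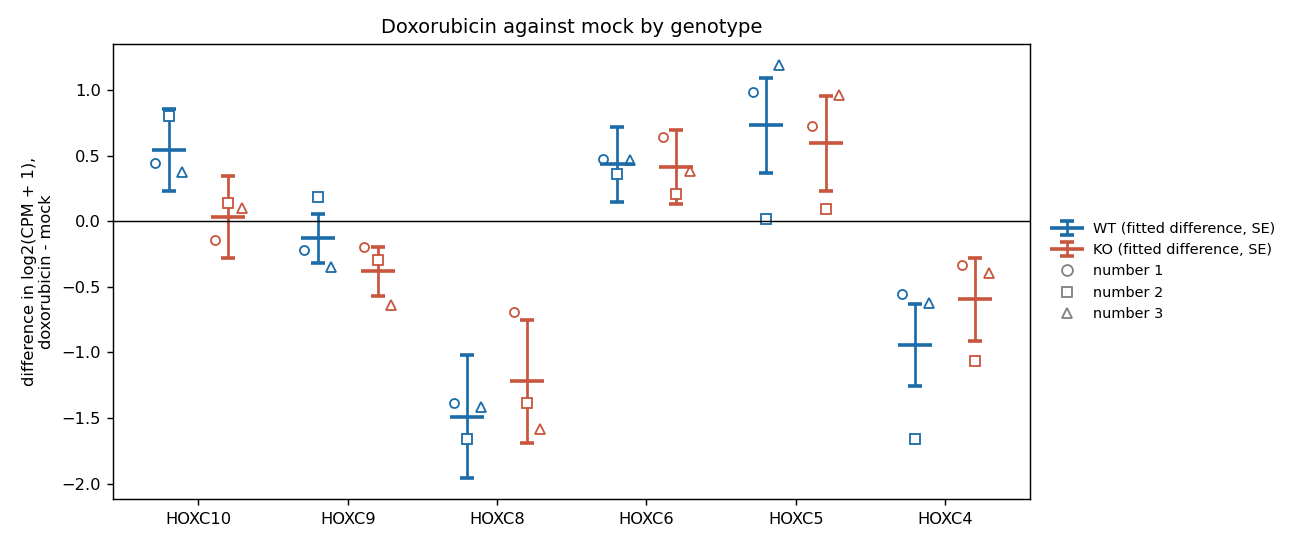
Difference in log2(CPM + 1) between doxorubicin and mock for the 6 members in both tables, in WT (blue) and KO (red). Bars are the fitted difference with its SE over 12 libraries and open markers the difference within each replicate number; HOXC10 is at 0.54 in WT and 0.03 in KO, and HOXC8 is the lowest in both genotypes (-1.49 and -1.22).

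Whether the response to doxorubicin differed between genotypes was asked with the interaction, which is the difference of the 2 genotype contrasts and so is not independent of how the members were chosen. No member was called, and by limma 0 of 10292 genes were (0%), with 468 at an unadjusted p under 0.05. With the replicate block 0 genes (0%) were called as well, with 1610 at an unadjusted p under 0.05. HOXC10 had the interaction farthest from 0, at -0.51 in log2, the KO response minus the WT response (SE 0.44, adjusted p = 0.922, and 0.257 with the block, where the SE was 0.18). The other members lay between -0.25 (HOXC9) and 0.35 (HOXC4). A response called in WT and not in KO is therefore not shown to differ between them.

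Summed marker levels also differed between mock and doxorubicin. The summed level of the fibroblast markers ran from 35696 to 51017 CPM in the 6 mock libraries and from 18152 to 24815 CPM in the 6 doxorubicin libraries. The listed epithelial markers (KRT18 and KRT19, and CLDN4 in the doxorubicin table only) summed to 6.43 to 37.4 CPM in mock and 87.7 to 263.3 CPM after doxorubicin. The listed blood markers (CD68, and CD14 in the doxorubicin table only) summed to 2.42 to 58.3 and 69.0 to 156.5 CPM, and the endothelial ones (KDR, with EMCN in mock only) to 3.95 to 10.6 and 24.7 to 35.0 CPM. The epithelial, blood and endothelial sums cover different genes in mock and after doxorubicin, so they are not like for like. The part of CLDN4, CD14 and EMCN in them was not separated. The neural, skeletal muscle and cartilage lists, with 2 genes listed each, had ranges that overlapped between treatments. Between genotypes the ranges of every list overlapped in mock and after doxorubicin. The part of the marker differences between treatments in the Hoxc values was not tested.

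Replicate number went with the members in different ways. HOXC10 had its lowest library in replicate 3 in all 4 groups, as had 13.7% of all genes, whereas HOXC6 and HOXC8 had their highest library in replicate 3 in all 4 groups, as had 8.9% of all genes. HOXC8 in KO mock was the widest of these, from 12.2 CPM in replicate 2 to 40.1 CPM in replicate 3. HOXC13 was highest in replicate 3 in both doxorubicin groups. The part of the replicate number in the genotype differences was not tested beyond the differences within numbers given above.

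The other Hox clusters were set beside Hoxc as a description, and values of all 4 clusters come from the same libraries. The Hoxc genes were selected with KO below WT, so their KO against WT counts and medians do not show that this cluster differs from the others. Of all genes, 7094 of 10648 had a higher mean in KO in mock and 6034 of 11125 after doxorubicin. In mock, 0 of 6 Hoxc, 0 of 8 Hoxb, 4 of 8 Hoxa and 3 of 4 Hoxd genes had a higher mean in KO, with medians of -0.56, -0.21, 0.01 and 0.50 in log2. After doxorubicin those were 0 of 7, 2 of 8, 4 of 6 and 2 of 4, with medians of -0.58, -0.09, 0.40 and 0.23. The range of Hoxc in mock (-0.61 to -0.25) overlapped that of Hoxb (-0.40 to -0.16). No test of one cluster against another was made. After doxorubicin in WT, 0 of 8 Hoxb genes (3 called), 4 of 6 Hoxa genes (2 called), 2 of 3 Hoxd genes (2 called) and 3 of 6 Hoxc genes (2 called) had a higher mean. In KO those were 1 of 8 (2 called), 6 of 6 (2 called), 2 of 3 (0 called) and 3 of 6 (0 called). Over the 17 other Hox genes in both tables, 4 rose and 3 fell in WT (limma, 5 and 6 with the block). In KO 2 rose and 2 fell (3 and 5 with the block). The all-gene shares beside them were 25.9% and 21.4% in WT and 19.9% and 14.6% in KO. With the block those were 33.6% and 30.1% in WT and 29.6% and 24% in KO. HOXB2 fell in both genotypes, from 23.8 ± 1.77 to 6.53 ± 3.77 CPM in WT (log2 -1.85, limma adjusted p = 0.0018) and in KO from 18.0 ± 3.10 to 7.87 ± 3.22 CPM (log2 -1.16, limma adjusted p = 0.0293). The KO call of HOXB2 was lost under 4 of 21 alternatives, among them leaving out KO mock replicate 2 or 3 or KO doxorubicin replicate 2 (adjusted p 0.0757, 0.0805 and 0.111). HOXA5 rose in both, from 8.43 ± 2.50 to 18.0 ± 6.42 CPM in WT (limma adjusted p = 0.0141) and in KO from 6.68 ± 1.43 to 14.6 ± 1.64 CPM (limma adjusted p = 0.0155). Those calls were lost under 3 of 21 alternatives in WT (adjusted p 0.0608 without WT mock replicate 1 and 0.0623 without WT doxorubicin replicate 3) and 1 in KO (0.0564 without KO mock replicate 3).

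The genes beside the cluster had KO against WT differences on both sides of 0. Of the 5 nearest listed genes on each side, 6 of 10 had a higher and 4 a lower mean in KO in both treatments, with differences of -0.14 to 0.29 in mock and -0.33 to 0.56 after doxorubicin in log2. CALCOCO1, next to HOXC13, differed by -0.03 and -0.16, and SMUG1, a DNA repair glycosylase gene next to HOXC4, by -0.14 and 0.23. After doxorubicin 3 of the 10 rose and 2 fell in WT (limma) and 2 rose and 1 fell in KO. These counts were near the shares of all genes called (25.9% and 21.4% in WT, 19.9% and 14.6% in KO). With the block they were 4 and 3 in WT and 3 and 3 in KO, near the blocked shares (33.6% and 30.1% in WT, 29.6% and 24% in KO). ZFP385A, a zinc finger gene, rose from 44.5 ± 3.48 to 156.1 ± 33.7 CPM in WT (log2 1.77, limma adjusted p = 2.7e-05), and CBX5, which encodes the heterochromatin protein HP1 alpha, fell from 156.9 ± 33.2 to 69.3 ± 17.7 CPM (log2 -1.18, limma adjusted p = 0.0015).

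**Figure D4:**
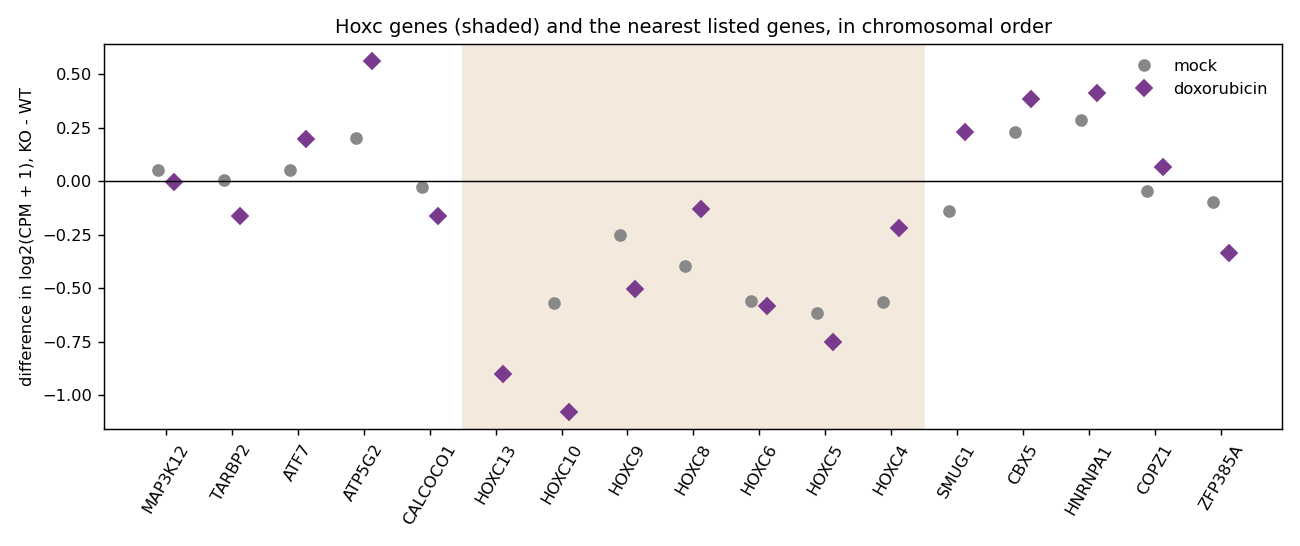
Difference in log2(CPM + 1) between KO and WT for the Hoxc genes (shaded) and the 5 nearest listed genes on each side, in the order of the annotation (equal spacing, not distance), in mock (grey) and doxorubicin (purple). All Hoxc points lie below 0, on which the members were selected, and those of the neighbours lie on both sides of 0, from -0.33 to 0.56.

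Genes that work with Hox proteins or set their expression were followed as lists, whose counts are to be read beside the shares of all genes called. Without the block these shares were 25.9% higher and 21.4% lower in WT and 19.9% and 14.6% in KO. For counts with the block they were 33.6% and 30.1% in WT and 29.6% and 24% in KO. Of the Hox cofactors (PBX, MEIS and PKNOX genes, whose proteins bind DNA together with Hox proteins) 9 of 10 were tested, and 0 rose and 2 fell in WT (limma, 0 and 4 with the block) and 0 rose and 1 fell in KO (1 and 5 with the block). MEIS1 fell in WT from 29.9 ± 3.54 to 14.8 ± 5.28 CPM (log2 -1.03, limma adjusted p = 0.0163), a call lost without WT mock replicate 3 or WT doxorubicin replicate 2. PBX3 was the cofactor called in KO, from 22.3 ± 1.79 to 15.3 ± 0.329 CPM (log2 -0.52, limma adjusted p = 0.0424), a call lost under 11 of 21 alternatives. The list's median was -0.21 in WT and -0.32 in KO.

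Of the Polycomb group genes 31 of 33 were tested, and 6 rose and 5 fell in WT (limma, 7 and 10 with the block) and 6 rose and 4 fell in KO (6 and 7 with the block), with medians of -0.04 and -0.03 in log2. These counts lay near or below the shares of all genes. EED, a core subunit of Polycomb repressive complex 2, rose from 43.6 ± 4.22 to 93.4 ± 14.6 CPM in WT (limma adjusted p = 1e-04) and in KO from 46.2 ± 2.25 to 89.5 ± 9.31 CPM (limma adjusted p = 0.00043). EZH2, the methyltransferase of that complex, was called lower in KO only, from 44.1 ± 11.5 to 21.0 ± 5.87 CPM (log2 -1.04, limma adjusted p = 0.0466), and the call was lost under 8 of 21 alternatives. EZH2 in WT was at 33.7 ± 10.5 and 25.3 ± 15.1 CPM, and the interaction was called for no gene. Between genotypes, 25 of 32 Polycomb genes had a higher mean in KO in mock (median 0.10) and 18 of 31 after doxorubicin (median 0.09), beside 7094 of 10648 and 6034 of 11125 of all genes. The all-gene count in mock was 5547 under quantile normalization and 5214 under median centring, and the Polycomb genes were not counted under these scalings.

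Of the trithorax group and H3K27 demethylase genes 15 were matched to 24 names, which include alternative names, and 1 rose and 3 fell in WT (limma, 3 and 4 with the block) and 0 rose and 3 fell in KO (1 and 6 with the block). PSIP1, whose protein ties the MLL complex to chromatin, fell in both genotypes, from 75.1 ± 11.2 to 49.9 ± 5.74 CPM in WT (limma adjusted p = 0.0077) and in KO from 103.6 ± 5.10 to 59.6 ± 9.21 CPM (limma adjusted p = 0.0021). Of the other Hox regulators 6 of 11 were tested, and 3 rose and 1 fell in WT (limma, 3 and 2 with the block) and 1 rose and 1 fell in KO (2 and 1 with the block). GDF11, a signal that shifts Hox expression to its posterior members in the trunk, fell from 33.2 ± 3.73 to 21.2 ± 1.04 CPM in WT (limma adjusted p = 0.0077) and in KO from 33.9 ± 5.90 to 21.2 ± 2.93 CPM (limma adjusted p = 0.0085).

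The pattern the members share was taken as the mean of their standardised log2 values over the 12 libraries. It was highest in WT doxorubicin replicate 1 (0.601) and WT mock replicate 1 (0.596) and lowest in KO doxorubicin replicate 2 (-1.30), and KO mock replicate 3 (0.230) stood among the WT libraries. The members themselves followed it unequally, from Pearson r = 0.29 for HOXC10 to 0.757 for HOXC6. Outside the Hox family the genes most like it were LYST (r = 0.886), THY1 (r = 0.874), WDFY1 (r = 0.854), the clone-named AC145168.1 (r = 0.848) and MEIS2 (r = 0.837). These correlations are over 12 libraries that share group, number and depth, and are given as a description. The members were chosen with KO below WT, so genes lower in KO rank high in this list by construction. THY1, a surface protein of fibroblasts, had group means of 1372 CPM in WT mock, 1017 in KO mock, 1330 in WT doxorubicin and 814.9 in KO doxorubicin. MEIS2, a Hox cofactor gene, had means of 42.9, 39.4, 40.7 and 30.1 CPM in the same groups. LYST was at 29.3, 26.1, 32.6 and 23.0 CPM and WDFY1 at 79.7, 40.3, 62.0 and 45.7 CPM. AC145168.1 was at 5.91, 0.20, 4.66 and 0.19 CPM, so it is listed through its WT values.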

How the data were processed

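Primary fibroblast mRNA was sequenced from a stranded kit, per the labels' protocols. TopHat2 2.0.6, HTSeq, edgeR and the assembly NCBIM37 are named per the submitters' processing notes; counting mode and read length are not given in the sources used here. The deposited values were CPM per gene in 1 table per treatment. Each library's CPM were whole multiples of 1 read over a single total (100% of values within 0.001 of a read). This alone does not show that the total is the plain library total. The listed genes' CPM summed to 99.2 to 99.6% of the full CPM scale in every library of both treatments, so both tables were taken to share a scale.

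Groups and replicate numbers came from the labels. Values were analysed as log2(CPM + 1) with limma 3.58.1 in R 4.3.3 (eBayes with trend): KO against WT within a table, and doxorubicin against mock and the interaction over 12 libraries and the 10292 genes in both tables, with Benjamini-Hochberg adjustment at 0.05. The p-values measure the spread between these replicates. Count tests were not used, since the unit is CPM. The code was tested on simulated data.

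Same-numbered libraries deviated together across genes (correlations 0.710 to 0.855 for WT with KO in mock, 0.669 to 0.800 after doxorubicin, 0.394 to 0.517 and 0.428 to 0.728 across treatments in WT and KO, all others negative), so the numbers are taken from the data to pair samples, and a fit with the number as a block stands beside results it changes. Alternatives were pseudocount, filter, scaling, block and leaving out each library.

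The members and lists were chosen with earlier results of these data known. Named genes are the members, up to 3 called genes each way per list and contrast, of which a part is printed, and the 5 most alike genes. SMUG1, the KO against WT values of CALCOCO1 and the WT values of EZH2 were added after values were seen. The annotation (GENCODE vM21, GRCm38) is of another build, so no coordinates are given. The values of 1 named gene and 1 homeobox sequence are not reported here.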

Additional observations from a re-analysis of the deposited data

How the results depend on the processing

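KO against WT medians over the members moved by less than the replicate SD under all 14 alternatives in each treatment. Each gene was held to the SD of its own 3 same-number differences. After doxorubicin HOXC10 moved by more under 5 of 14, HOXC5, HOXC8 and HOXC13 under 4 of 14 and HOXC4 under 3 of 13. In mock HOXC8 and HOXC10 did under 1 of 14. These limits are unlike: HOXC10 after doxorubicin, with close differences (-1.02, -1.06 and -1.14), stayed at -1.31 to -0.81. HOXC4 ran from -0.54 to 0.12 and HOXC8 from -0.44 to 0.28. In WT, 2 members were called after doxorubicin, 5 with the replicate block and 5 with the replicate block within genotype. Leaving out 1 library gave 0 to 2. In KO, 0 were called, 3 with the replicate block, 2 with it within genotype and 0 to 1 without 1 library, and the block raised the calls over all genes from 3552 to 5524. The block fit without 1 replicate number was chosen after seeing the data. It gave 3, 3 and 4 members in WT without number 1, 2 and 3, and 1, 2 and 2 in KO. The block changed no other doxorubicin or interaction call of a member. For KO against WT, where no member was tested, it moved the limma calls over all genes from 0 to 98 in mock and from 0 to 2820 after doxorubicin (without the block 440 and 1246 genes had an unadjusted p under 0.05).

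The HOXC10 response in KO changed sign under median centring (-0.051), with the block without number 2 (-0.0188) or 3 (-0.000327), and when 1 library was left out (-0.27 to 0.30). So did HOXC9 in WT without 1 library (-0.27 to 0.0363). The HOXC6 interaction was 0.0375 under quantile normalization, 0.00575 under median centring, 0.0436 and 0.0121 with the block without number 2 and 3, and -0.30 to 0.27 without 1 library. Without 1 library the interaction ran from -0.52 to 0.17 for HOXC5 and from -0.058 to 0.76 for HOXC8. None of these were calls, and the cause was not tested. HOXC4 after doxorubicin gave no KO against WT value at a mean of at least 5 CPM. Depth limits HOXC4 most, with 31 reads in its lowest library.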

Other observations

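The ratio of HOXC8 to HOXC10 (CPM over CPM, not corrected for length) varied widely between libraries of a group. It was 1.07, 0.943 and 2.28 in WT mock replicates 1, 2 and 3 and 0.917, 0.768 and 4.84 in the KO mock replicates. After doxorubicin the ratio was 0.277, 0.150 and 0.619 in WT and 0.603, 0.231 and 1.42 in KO. In each of the 4 groups replicate 3 had the highest ratio and replicate 2 the lowest, although replicates 1 and 2 of WT mock lay close to their counting error. Each number is 1 library in a group, and the ratio was chosen after seeing the values, so this is a description.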
